A study of Bos taurus and Bos indicus with 3 samples.

Results

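DGAT2 and PLIN2 encode proteins of triglyceride storage, and their transcripts were followed here in leukocytes of Holstein, Jersey and Cholistani cattle. Of 8 genes of triglyceride storage (DGAT1, DGAT2, PLIN2, PLIN3, PNPLA2, FASN, ACSL1 and SCD), a gene was taken where its symbol or the bovine entry name of its protein stood on a gene model. DGAT2 and PLIN2 each stood on 1 model, and the other 6 symbols matched no model name, so those 6 genes were not analysed here. The 2 genes are 2 of 25968 gene models, of which 15284 had a value in every library and were above 0 in at least 1. The set was chosen from these libraries with the DGAT2 values known, because the study had picked DGAT2 as a gene that differed between Holstein and Cholistani, so the values of DGAT2 are a description and support no test.

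Both taurine breeds were sampled in Wisconsin but at different farms, with 40 Holstein cows at a university dairy center and 7 Jersey cows at a research station. The indicine breed was sampled at a farm in Pakistan, with 45 Cholistani cows. Equal volumes of tail vein blood were pooled within each breed, the white cells were collected, and their polyadenylated RNA was sequenced as 1 library per breed. The Cholistani RNA was also carried in a dry storage matrix. Breed, place and transport therefore cannot be told apart, and neither can breed and farm between Jersey and Holstein. A pool gives no spread between animals, so no test, standard error or p-value was computed. Every difference below is between 2 libraries. Values are FPKM (fragments counted per kilobase of exon, with each library scaled by the authors to its upper quartile), and where 3 values follow each other they are those of the Holstein, Jersey and Cholistani pools in that order. Log2 folds are of FPKM + 1, which understates the change of low genes, and a gene was called higher or lower where FPKM + 1 differed at least 2-fold. The FPKM of the 3 libraries summed to 5949770, 6288100 and 9525770, so folds were also computed with the 3 sums set equal. That moved the median log2 fold of all models between Cholistani and Holstein from 0.15 to -0.43.

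Triglycerides are built at the endoplasmic reticulum by adding fatty acids to glycerol phosphate in steps. Acyltransferases (GPAT and AGPAT enzymes) add the first fatty acids, lipins remove the phosphate, and the diacylglycerol acyltransferases DGAT1 and DGAT2 add the last fatty acid. The product is kept in lipid droplets, which perilipins such as PLIN2 coat and which lipases empty. Macrophages and neutrophils carry such droplets, and so do adipocytes and hepatocytes.

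The DGAT2 model lay on chromosome 15 from 54717390 to 54749894 (btau4.0). The primer pair with which the study measured DGAT2 by real-time RT-PCR is shown because it defines the transcript that was also assayed outside the sequencing. The PCR values were not used here. The forward primer has 18 bases and the reverse primer 19, printed 5′ to 3′.
DGAT2 forward: tcacagtgggtccgaaac
DGAT2 reverse: atgtagttcctgctggtca
Of their bases, 10 in the forward and 9 in the reverse primer are G or C.

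Of the genes in the lipid lists used below that were above 0 in both libraries, DGAT2 had the largest fold between Cholistani and Holstein. Its level was 45.1 FPKM in the Holstein pool, 12.1 in the Jersey pool and 808 in the Cholistani pool. The Cholistani library stood far above both taurine libraries, and Jersey stood below Holstein. The Cholistani value was 17.9 times the Holstein value and 66.5 times the Jersey value, with log2 folds of 4.13 and 5.94. With equal sums the fold against Holstein was 3.46 on the log2 scale, and with a pseudocount of 10 FPKM the fold against Jersey was 5.21. Holstein in turn had 3.72 times the Jersey value (a log2 fold of -1.81 for Jersey against Holstein). In bulk RNA, more cells that express a gene and more RNA per cell cannot be told apart.

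DGAT2 also changed its place among the transcripts of each library, a measure that does not depend on how the libraries are scaled. It was above 33.3% of the 13409 detected models in Holstein and above 11.9% of 13783 in Jersey. In Cholistani it was above 90.1% of 13664. The gene thus stood in the lower part of both taurine transcriptomes and in the upper part of the Cholistani one. GAPDH, the glycolytic enzyme that the study used as its RT-PCR reference, kept its place at 94.6%, 95.0% and 94.8%.

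Large differences were common in these libraries. Between Cholistani and Holstein, 19.7% of the 15284 models were called higher in Cholistani and 13.7% lower. Among the 5705 models with a mean of 100 to 1000 FPKM in these libraries, where DGAT2 lies, 14.6% were higher. A fold as large as that of DGAT2 was less common. It was reached by 654 models, by 202 of the 9515 whose higher value was 50 FPKM or more, and by 30 of the 5274 of these that carry a gene name, DGAT2 included. Against Jersey, 17.2% of all models were higher and 14.2% lower in Cholistani, and 16 of 5264 named models of that level were as far up as DGAT2. Between Jersey and Holstein, 7.99% of all models were higher in Jersey and 4.7% lower, and 4.58% were lower among the 5940 models with a mean of 10 to 100 FPKM, where DGAT2 lies in that comparison. Of the 2 matched genes, DGAT2 was called in all 3 comparisons and PLIN2 in none.

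PLIN2, the perilipin that coats lipid droplets in most cell types, was nearly level. Its model lay on chromosome 8 from 26632648 to 26646671 (btau4.0). Its level was 269.6 FPKM in the Holstein pool, 262 in the Jersey pool and 222 in the Cholistani pool. The taurine libraries were almost the same, at a log2 fold of -0.04, and Cholistani was slightly lower, with log2 folds of -0.28 against Holstein and -0.23 against Jersey. With equal sums the latter pair became -0.95 and -0.83, which is lower but still under 2-fold. PLIN2 stood above 77.8% of the detected models in Holstein, 77.3% in Jersey and 69.4% in Cholistani.

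FPKM is per length, so levels of the 2 genes can be set against each other within a library. The level of DGAT2 was 0.167 times that of PLIN2 in Holstein and 0.0464 times in Jersey. In Cholistani it was 3.63 times that of PLIN2. Which of these droplet genes was the more abundant was therefore opposite in the Cholistani and taurine libraries. Relative to GAPDH, the DGAT2 level was 0.0437 in Holstein, 0.0108 in Jersey and 0.535 in Cholistani. That ratio was 12.3 times higher in Cholistani than in Holstein, while the ratio of PLIN2 to GAPDH was 0.564 times as high (0.261 in Holstein, 0.234 in Jersey and 0.147 in Cholistani).

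**Figure D1:**
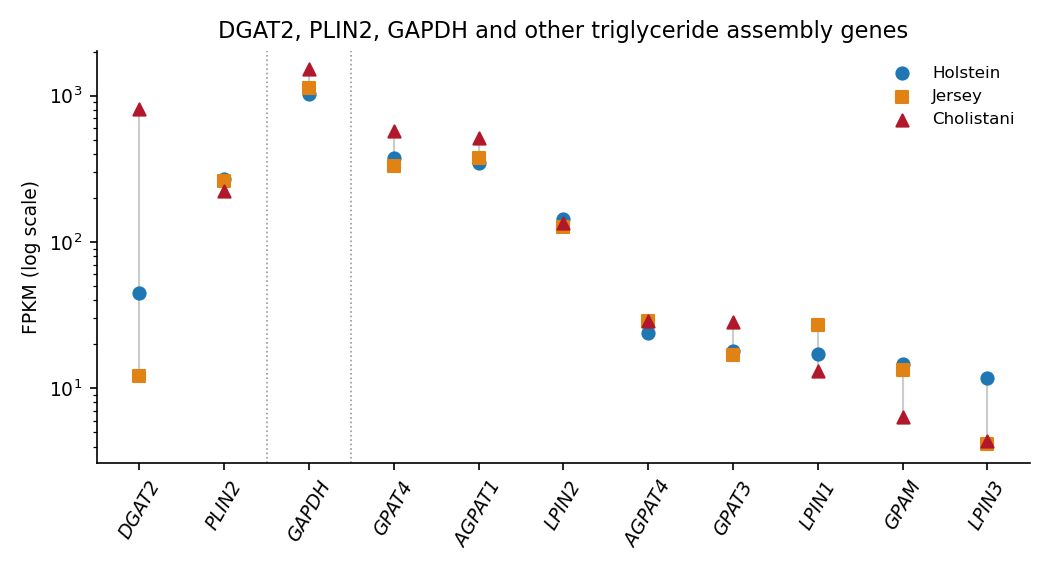
FPKM (log scale) of DGAT2, PLIN2, GAPDH and 8 other genes of triglyceride assembly, with 1 point for each pooled library: circles for Holstein, squares for Jersey, triangles for Cholistani. The DGAT2 points run from 12.1 to 808 FPKM, while those of PLIN2 lie between 222 and 269.6.

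The other listed genes of triglyceride assembly did not share the size of the DGAT2 difference. The list held 15 genes, of which 10 stood on a model by name and 9 were above 0. It left out GPAT2, whose model had a log2 fold of 4.60 for Cholistani against Holstein, above that of DGAT2. For Jersey against Holstein the GPAT2 fold was 0.21. Of the 9 listed genes, DGAT2 alone was called higher in Cholistani than in Holstein, 2 were lower and 6 were neither. Among all models, 19.7% were higher and 13.7% lower. The median log2 fold of the list was 0.25, beside 0.15 for all models, and -0.40 beside -0.43 with equal sums.

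GPAT4, which starts the pathway, and AGPAT1, of the next step, were the most abundant of them in both taurine libraries. GPAT4 had 375, 330.4 and 573 FPKM, and AGPAT1 had 346, 377 and 514 FPKM. Both were higher in Cholistani by less than 2-fold (log2 folds of 0.61 and 0.57), and with equal sums both were marginally lower (-0.06 and -0.11). The genes lower in Cholistani than in Holstein were GPAM, the mitochondrial enzyme of the first step (14.7, 13.3 and 6.36 FPKM), and the lipin LPIN3 (11.7, 4.16 and 4.35 FPKM). Both had their highest value in Holstein.

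In Holstein, DGAT2 made up 4.54% of the summed FPKM of these 9 genes and ranked 4th among them. In Jersey it made up 1.29% and ranked 8th. In Cholistani it made up 38.3% and ranked 1st. The other 8 genes together had 948, 926 and 1302 FPKM, and the whole list 994, 938 and 2110.5 FPKM. On the authors' scale, DGAT2 thus made up most of the difference between the Cholistani and taurine sums of this list, which leaves out GPAT2. The list sums were not computed with equal sums of the libraries.

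Of the lipid droplet list, 6 of 12 genes stood on a model and 3 were above 0 (PLIN2, BSCL2 and FITM2). None of the 3 differed 2-fold between Cholistani and Holstein, beside the same shares of all models. With equal sums FITM2 was called lower (a log2 fold of -1.42), beside 27.5% of all models. PLIN2 was the most abundant of the 3 in every library, with 64.0%, 67.7% and 59.5% of the summed FPKM of the 3. BSCL2, which encodes seipin, a protein of droplet formation, had 127, 102 and 137 FPKM. FITM2, which helps droplets to form at the endoplasmic reticulum, had 24.9, 23.3 and 14.1 FPKM. The perilipin genes PLIN4 and PLIN5 and the droplet fusion gene CIDEB were listed at 0 in all 3 libraries.

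Across all lipid lists other than the triglyceride storage genes themselves, 104 genes were listed, 55 stood on a model and 48 were above 0. Between Cholistani and Holstein, 6 of the 48 were higher and 4 lower, with a median log2 fold of 0.07 beside 0.15 for all models, of which 19.7% were higher and 13.7% lower. With equal sums 1 was higher and 12 were lower, with a median of -0.58, while 11.6% of all models were then higher and 27.5% lower, with a median of -0.43. Against Jersey, 2 were higher and 3 lower in Cholistani, beside 17.2% and 14.2% of all models. Between Jersey and Holstein, 2 were higher in Jersey and 2 lower, beside 7.99% and 4.7%.

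**Figure D2:**
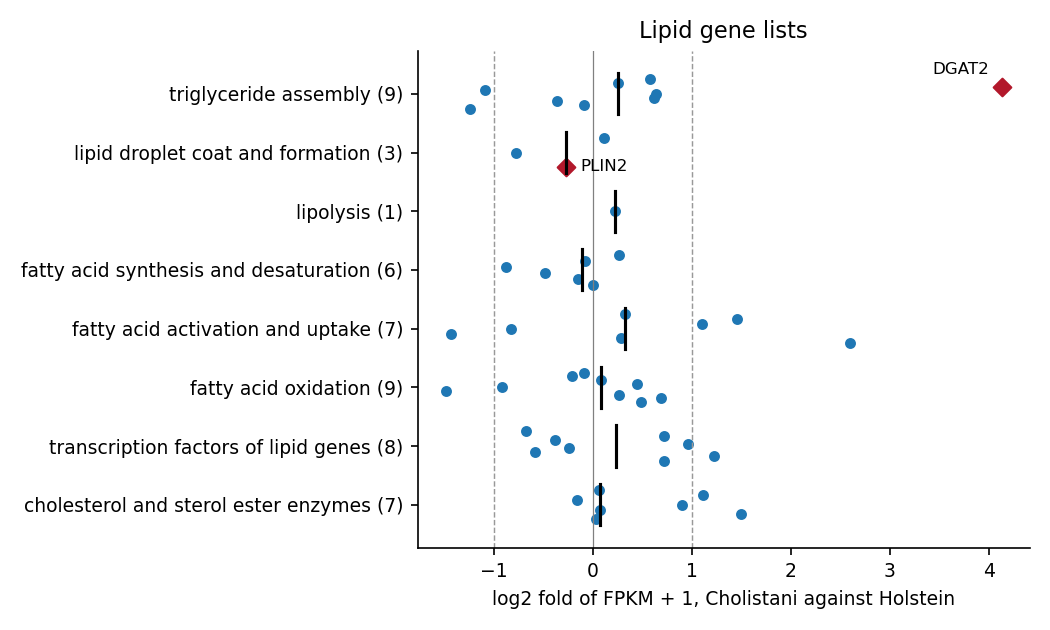
Cholistani against Holstein: log2 folds of FPKM + 1 of the genes in 8 lipid lists, 1 point per gene above 0 (number in parentheses), with the list median as a black bar and the 2-fold limits as dashed lines. DGAT2 (diamond, 4.13) lies to the right of every other point, and PLIN2 (diamond, -0.28) lies within the limits.

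The higher genes were of fatty acid transport and sterol synthesis. FABP3 and FABP5, which carry fatty acids in the cytosol, were most abundant in Cholistani. FABP3 had 233, 302 and 641 FPKM, and FABP5 had 30.9, 39.0 and 67.5 FPKM. SLC27A2, a fatty acid transporter, was listed at 0 for Holstein, with 3.53 FPKM for Jersey and 5.05 for Cholistani. SCAP, the escort of the sterol-sensing transcription factors, had 206, 253 and 481 FPKM. MVK, an enzyme of the mevalonate pathway, had 143, 185 and 406 FPKM, and DHCR7, of the last steps of cholesterol synthesis, had 137, 174 and 297. With equal sums FABP3, FABP5, SCAP, MVK and DHCR7 were still higher, by less than 2-fold (log2 folds of 0.78, 0.44, 0.54, 0.82 and 0.44).

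The lower genes beside GPAM and LPIN3 were LPL and CPT1A. LPL, the lipase that frees fatty acids from circulating triglycerides, had 124, 100.2 and 45.1 FPKM. CPT1A, which admits fatty acids to the mitochondria for oxidation, had 386, 166 and 137 FPKM. The low library differed between these genes: LPL was lowest in Cholistani, while CPT1A was high in Holstein alone, and Jersey was called lower than Holstein for CPT1A and for LPIN3.

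Most genes that supply or use fatty acids stayed under 2-fold on the authors' scale. ACLY, which makes acetyl-CoA for fatty acid synthesis, had 239, 235 and 226 FPKM. ACACA, of the next step, had 26.7, 29.96 and 32.4 FPKM. No gene of the synthesis and desaturation list (6 above 0) differed 2-fold between Cholistani and Holstein on that scale. Among all models, 19.7% were higher and 13.7% lower. With equal sums FADS1 and FADS2 were called lower (log2 folds of -1.54 and -1.05), beside 27.5% of all models. FADS3, the most abundant of the list, had 756, 812 and 681 FPKM. The desaturase gene FADS1 had 53.1, 62.6 and 28.3, which was called lower in Cholistani than in Jersey. In oxidation, ACADVL had 626, 576 and 853 FPKM and ECHS1 had 401, 382 and 645. DBI, which binds acyl-CoA, had 1231, 1168 and 1539.8 FPKM. LIPE, the hormone-sensitive lipase and the only gene of 9 in the lipolysis list with a model, had 34.7, 38.2 and 40.7 FPKM.

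The list of transcription factors of lipid genes also held proteins that are not such factors themselves, among them SCAP and INSIG2. Of its 15 genes, 10 stood on a model and 8 were above 0. SREBF1, PPARA, PPARD, CEBPB and CEBPD had no model, and MLXIPL and PPARGC1A were listed at 0. Of the 8, only SCAP differed 2-fold between Cholistani and Holstein on the authors' scale, so none of the transcription factors with a value did. Among all models, 19.7% were higher and 13.7% lower. With equal sums SCAP was under 2-fold, and CEBPA, PPARG and INSIG2 were called lower (log2 folds of -1.35, -1.24 and -1.05), beside 27.5% of all models. SREBF2, which drives sterol synthesis genes, had 725, 711 and 1194 FPKM. NR1H2, an oxysterol receptor, had 396, 534 and 769 FPKM, and CEBPA, a factor of myeloid cells and adipocytes, had 191, 190.2 and 119. Of the sterol enzymes, FDPS had 479.5, 507 and 892 FPKM and FDFT1 had 391, 372 and 350.1.

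The models most like DGAT2 in pattern were sought by the distance between pairs of log2 folds against Holstein (Jersey and Cholistani), among 5337 other models that carry a gene name and reach 50 FPKM in some library. The measure rests on 3 libraries, and both folds share the Holstein library. CXCR2, a chemokine receptor of neutrophils, lay nearest, at a distance of 0.19, with 33.5, 7.62 and 598 FPKM. The model named SDHL, the entry name of serine dehydratase, followed at 0.43 with 809.7, 171 and 14764 FPKM. These were the only models within 0.5 of DGAT2, whereas 1733 models lay within 0.5 of PLIN2. Next were the cytokine gene IL1B (distance 1.05, with 89.3, 51.4 and 1851 FPKM), the chemokine gene CCL4 (distance 1.20, with 85.3, 54.5 and 1811 FPKM) and the synaptotagmin gene SYT8 (distance 1.37, with 38.4, 22.8 and 387 FPKM). The study had picked CXCR2 and IL1B from these libraries as well.

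**Figure D3:**
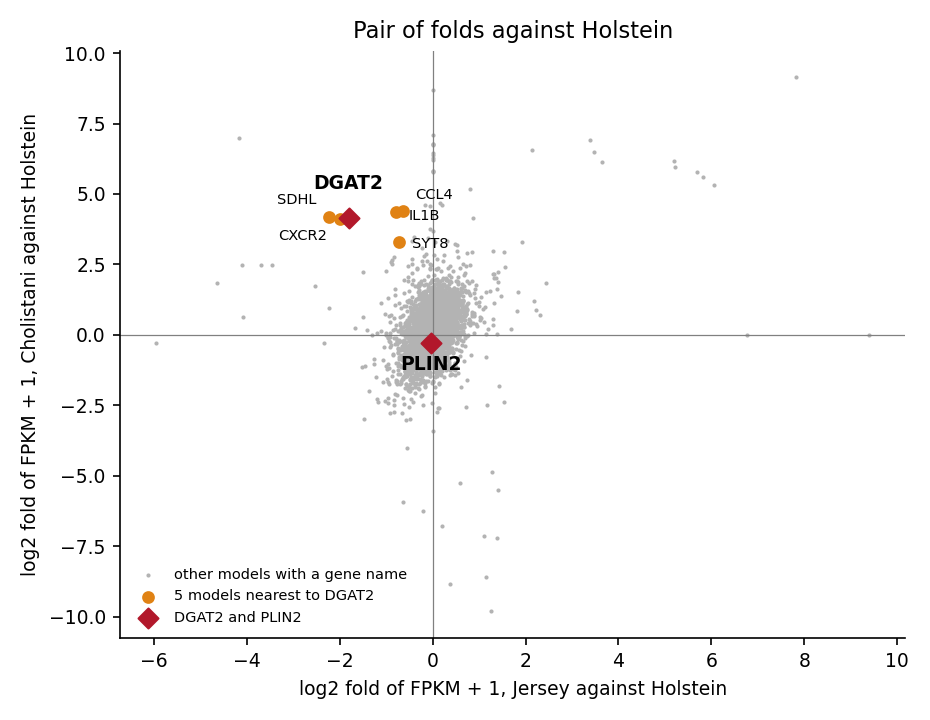
Log2 folds of FPKM + 1 against Holstein, for Jersey (horizontal axis) and Cholistani (vertical axis), of 5337 models that carry a gene name and reach 50 FPKM in some library (grey), with the 5 models nearest to DGAT2 (orange) and DGAT2 and PLIN2 (red diamonds). DGAT2 lies at -1.81 and 4.13, away from most models and next to CXCR2 and SDHL, and PLIN2 lies within the dense centre.

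Neutrophil markers were measured beside DGAT2 because CXCR2 is one of them. Of 10 markers, 7 stood on a model and all 7 were above 0. Their summed FPKM was 22801, 19098 and 23502, most of it from S100A8 and S100A9. Marker sums and calls, here and below, are on the authors' scale, on which the total over all models was also highest in Cholistani. They were not computed with equal sums, so a level or higher marker sum in Cholistani depends on that scale. Between Cholistani and Holstein, CXCR2 and CSF3R, the receptor of granulocyte colony-stimulating factor, were called higher and the other 5 were neither, beside 19.7% higher among all models. Against Jersey, 4 of the 7 were higher in Cholistani, beside 17.2%, and 2 were lower in Jersey than in Holstein, beside 4.7%. CSF3R had 657, 532 and 1976 FPKM. S100A8 had 11065, 9500.3 and 7767 FPKM and S100A9 had 7472, 6584 and 8013.5. The ratio of DGAT2 to CSF3R was 5.95 times higher in Cholistani than in Holstein. That of DGAT2 to CXCR2 was nearly level, at 1.35, 1.59 and 1.35, as follows from the choice of CXCR2 by its pattern. Monocyte markers (4 of 8 with a model, all above 0) summed to 873, 548 and 869 FPKM. The part of cell composition in the DGAT2 values was not tested.

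**Figure D4:**
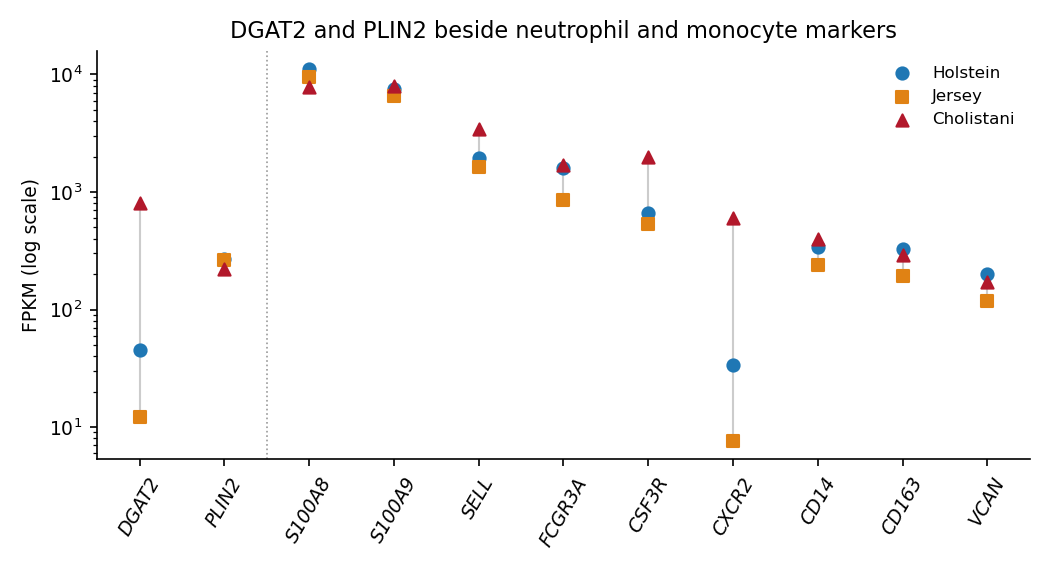
FPKM (log scale) of DGAT2, PLIN2, 6 neutrophil markers and 3 monocyte markers that were above 0 in every library, with 1 point for each pooled library (Holstein circles, Jersey squares, Cholistani triangles). DGAT2 and CXCR2 span a wider range than the other markers, of which CSF3R runs from 532 to 1976 FPKM.

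Markers of adipocytes and hepatocytes were also looked up. Of the adipocyte list, 3 of 7 genes stood on a model, and ADIPOQ, PLIN1, CIDEC and CIDEA did not. The hormone gene LEP and the fatty acid carrier gene FABP4 were listed at 0 in all 3 libraries. LIPE, the third, was above 0 in all 3, with 34.7, 38.2 and 40.7 FPKM. All 4 hepatocyte genes (ALB, APOB, APOA1 and TTR) stood on a model and were listed at 0 in all 3 libraries. On the authors' scale, the summed level of lymphocyte markers was highest in Cholistani. It was 4753, 4717 and 9909 FPKM for 5 T cell markers. The sum of 3 B cell markers was 6542, 8052 and 16162 FPKM, although PAX5 among them was lowest in Cholistani (296, 381 and 145 FPKM), and that of 3 natural killer cell markers was 1048, 783 and 3144. The 4 platelet markers summed to 1067, 1124 and 856 FPKM. Of these, 1 (GP9, with 84.5, 104 and 190 FPKM) was called higher in Cholistani than in Holstein and 2 were called lower. Among all models, 19.7% were higher and 13.7% lower. The 3 red cell markers with a model, of which AHSP was at 0, summed to 536, 375 and 102 FPKM. The other 2 went opposite ways. ALAS2 had 536, 363 and 32.3 FPKM, whereas HBA was listed at 0 for Holstein, with 11.5 FPKM for Jersey and 69.3 for Cholistani.

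No other model overlapped the listed span of DGAT2. The nearest model before it, 36.8 kb away and named only by a protein accession, was listed at 0 in all libraries. UVRAG, an autophagy gene that starts 18.9 kb after DGAT2, had 96.8, 106 and 94.3 FPKM. The difference in DGAT2 was thus not seen in the adjacent models. PLIN2 also shared its span with no model. Its neighbours were HAUS6, a spindle gene 6.78 kb after it (68.9, 67.9 and 43.2 FPKM), and DENND4C, 77.3 kb before it (291, 234 and 137 FPKM). Of these, DENND4C was called lower in Cholistani than in Holstein and HAUS6 was not.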

How the data were processed

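The authors aligned paired reads of 3 leukocyte libraries (1 per breed) to btau4.0 with TopHat 1.0.14 and Bowtie 0.12.7. They assembled transcripts with Cufflinks 0.9.3, merged them with Ensembl genes and deposited FPKM per gene model, which Cufflinks scaled to the upper quartile and adjusted for sequence bias. The number of fragments behind a value is unknown, so no interval was computed and a value of 0 is given as listed at 0. The 5 models with missing values were left out of all folds.

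Names were matched by symbol, older symbol (RefSeq gene table, ARS-UCD2.0, names only) or entry name, never by accession alone. Where a name stood on several models, the one with the highest mean FPKM was taken. Starts were read as 0-based, so 1 was added. Log2 folds used a pseudocount of 1 FPKM (Python 3.11.15, pandas 2.3.3), and the computation was tested on simulated data. The genes studied and the 8 lipid and 9 cell type lists were chosen with earlier results of these data known. The text names both matched genes, per lipid list the 2 most abundant genes and the highest and lowest between Cholistani and Holstein with at least 10 FPKM, the cell type markers, GAPDH and the 5 models nearest to DGAT2. Other names, among them the lipid genes called higher or lower, were added after their values were seen. Alternatives were pseudocounts of 0.1 and 10, equal FPKM sums, centred folds, FPKM relative to GAPDH, summed models and a minimum of 10 FPKM.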

Additional observations from a re-analysis of the deposited data

How the results depend on the processing

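DGAT2 was called higher in Cholistani against each taurine library, and lower in Jersey against Holstein, under every alternative run, and PLIN2 stayed under 2-fold in every comparison. The size of the DGAT2 difference moved by over 1.5 times with equal sums (a log2 fold of 3.46 against Holstein) and with a pseudocount of 10 FPKM (5.21 against Jersey). Counts of the other lipid genes depended on the scale. With equal sums, Cholistani had 1 higher and 12 lower gene calls against Holstein (11.6% and 27.5% of all models), and against Jersey 0 and 13 (10.4% and 26.2%). Relative to GAPDH these counts were 1 and 10 (12.4% and 23.9%), and 0 and 11 (11.4% and 21.7%), all of 48 genes. Centred folds gave 7 lower genes against Holstein (16.5% of all models), and against Jersey 0 higher and 5 lower (14.1% and 16.6%). A pseudocount of 10 left 2 lower than in Holstein (8.27%) and 0 lower than in Jersey (8.69%). A pseudocount of 0.1 gave 5 lower than in Jersey (14.7%). Between Jersey and Holstein, a pseudocount of 10 left 0 higher and 1 lower (4.85% and 2.64%), and a minimum of 10 FPKM left 0 higher. In all, 99 of 120 values changed by at most 1.5 times and kept their side of the 2-fold limit. This tally is no measure of robustness, as some of its values could not move or repeat others. Each lipid gene stood on 1 model, so summing models changed nothing, and counts over the 2 matched genes restate their folds. With 1 library per breed no library could be left out. No paired analysis was possible because each breed has 1 pooled library.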

Other observations

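SCD5, a desaturase gene, was listed at 0 for Holstein and Cholistani, with 4.55 FPKM for Jersey. A few other lipid genes had their highest or lowest level in Jersey but stayed under 2-fold in FPKM + 1 (all chosen after their values were seen). LPIN1 lay at that limit between Cholistani and Jersey (a log2 fold of -0.997). ABCG1, which exports cholesterol, had 36.1, 67.4 and 37.6 FPKM (Holstein, Jersey and Cholistani). The lipin gene LPIN1 had 17.1, 27.2 and 13.1 FPKM, and NR1H3, an oxysterol receptor of macrophages, had 349.6, 224 and 295 FPKM. With equal sums LPIN1 and ABCG1 were called lower in Cholistani than in Jersey (log2 folds of -1.56 and -1.41), and NR1H3 was not (-0.20). Of the 55 lipid genes with a model, 7 were listed at 0 in all 3 libraries: CIDEB, FABP4, MLXIPL, MOGAT1, PLIN4, PLIN5 and PPARGC1A.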
